A study of Mus musculus with 6 samples.

Results

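The 8 genes described here serve the osmotic work of the renal medulla: Nfat5, Akr1b3, Slc5a3, Slc6a12, Slc6a6, Slc14a1, Slc14a2 and Avpr2. They were taken by symbol from the 57180 genes listed for each kidney library, and all 8 were found under 1 Ensembl gene ID each and passed the filter on low counts. The kidneys came from 6 wildtype male C57BL/6J mice bought at 7 weeks of age. Vehicle mice (CON, n = 3) received deionized water, the dose of 0 mg/kg, and nanoplastic mice (NP200, n = 3) received cationic polystyrene nanoparticles at 200 mg/kg, each by mouth once a day for 6 weeks. Each library is RNA from kidney tissue of 1 mouse, and the labels do not say which part of the kidney was homogenized.

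The inner medulla is kept hypertonic so that water can be drawn out of the collecting ducts. Cells there balance the salt and urea around them with organic osmolytes. The transcription factor Nfat5, also called TonEBP, responds to high tonicity and acts on the genes that gather these osmolytes: Akr1b3, aldose reductase, makes sorbitol, and Slc5a3, Slc6a12 and Slc6a6 carry in myo-inositol, betaine and taurine. Slc14a2 encodes the UT-A urea transporters of the inner medullary collecting duct and the thin descending limb, and Slc14a1 encodes UT-B of the descending vasa recta, which red blood cells carry too. Avpr2, the V2 vasopressin receptor, opens the collecting duct to water and urea.

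Nfat5 binds an element named TonE, whose core letters are TGGAAA. The upstream stretches of 2 osmolyte transporter genes, Slc6a12 and Slc5a3, are shown. This pair was picked after it was seen that the 2 genes varied differently between libraries. A link of the letters to that difference was not tested. The stretches are RefSeq sequence of build GRCm38.p6, not the GRCm39 build of the gene tables. They end just before the first annotated start, and capitals mark the core. The core was searched on both strands.
Slc6a12, chr6:121342324-121342573, plus strand: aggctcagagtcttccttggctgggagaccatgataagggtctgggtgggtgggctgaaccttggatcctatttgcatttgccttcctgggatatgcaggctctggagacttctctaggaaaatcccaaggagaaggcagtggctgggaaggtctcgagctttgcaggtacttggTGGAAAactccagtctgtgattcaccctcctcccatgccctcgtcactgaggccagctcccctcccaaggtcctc
Slc5a3, chr16:92058072-92058321, plus strand: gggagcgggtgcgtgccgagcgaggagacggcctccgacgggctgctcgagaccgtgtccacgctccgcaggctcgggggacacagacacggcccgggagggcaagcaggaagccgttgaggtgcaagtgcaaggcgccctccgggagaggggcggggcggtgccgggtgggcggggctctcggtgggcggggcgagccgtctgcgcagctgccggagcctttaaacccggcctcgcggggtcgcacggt
The Slc6a12 stretch holds the core 1 time, on the plus strand, and the letters around it also match the longer TonE consensus. The promoter table holds 5 windows for Slc6a12, 1 for each annotated start, and 1 of the 5 holds the core and the consensus in the 250 bases before the start. The Slc5a3 stretch holds the core 0 times in these 250 bases, as do the single windows of Nfat5 and Avpr2. Akr1b3, Slc6a6, Slc14a1 and Slc14a2 had 0 windows and were not searched, nor were bases outside the windows of any gene. Among 32851 promoter windows of 250 bases, 18.6% hold the core and 4.31% hold the consensus, which contains the core. Such a match is a description of the letters and no measure of binding.

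The libraries held 19408534 to 26292760 expected counts. Kidney tubule markers were abundant in each, with Umod of the thick ascending limb at 2833 to 4336 CPM (counts scaled to library size, with the TMM factor of each library) and Slc34a1 of the proximal tubule at 3311 to 3947 CPM. Nanoplastic 1 stood apart. It held the highest value of 6 of the 8 genes, while 21.8% of all tested genes had their highest value there. It also held the highest summed adipocyte markers (102.8 CPM, with 25.7 CPM in vehicle 3 and at most 0.606 CPM in the other 4 libraries) and the highest summed urothelium markers (37.5 CPM, with 2.46 to 9.61 CPM in vehicle and 3.32 and 4.34 CPM in the other nanoplastic libraries). Of the 5 adipocyte markers, Adipoq, Plin1 and Lep had 0 counts in vehicle 1 and nanoplastic 2. The part of fat or pelvic lining in the values below was not tested.

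Per unit of transcript length, Akr1b3 and Slc6a6 stood highest and Slc6a12 lowest. On the deposited FPKM scale Akr1b3 measured 55.1 ± 9.65 in vehicle and 105.1 ± 105.9 in nanoplastic libraries (SD, n = 3 each). Slc6a6 followed at 65.6 ± 5.43 and 87.7 ± 8.55 FPKM, and exceeded Akr1b3 in 4 of the 6 libraries, so the order of this pair was not settled. Slc5a3 came next at 40.7 ± 7.90 and 37.01 ± 3.98 FPKM, followed by Nfat5 at 16.0 ± 0.848 and 17.8 ± 1.00 FPKM. Slc14a2 measured 9.17 ± 3.51 and 9.57 ± 5.56 FPKM and Avpr2 6.90 ± 1.10 and 7.17 ± 3.25 FPKM, with overlapping ranges. The last pair was Slc14a1, at 0.537 ± 0.0513 and 0.940 ± 0.737 FPKM, and Slc6a12, at 0.347 ± 0.124 and 0.543 ± 0.609 FPKM, whose ranges also overlapped although Slc14a1 was higher in all 6 libraries. The ranges of the other neighbours in this order did not overlap: Slc6a6 with Slc5a3, Slc5a3 with Nfat5, Nfat5 with Slc14a2, and Avpr2 with Slc14a1.

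**Figure D1:**
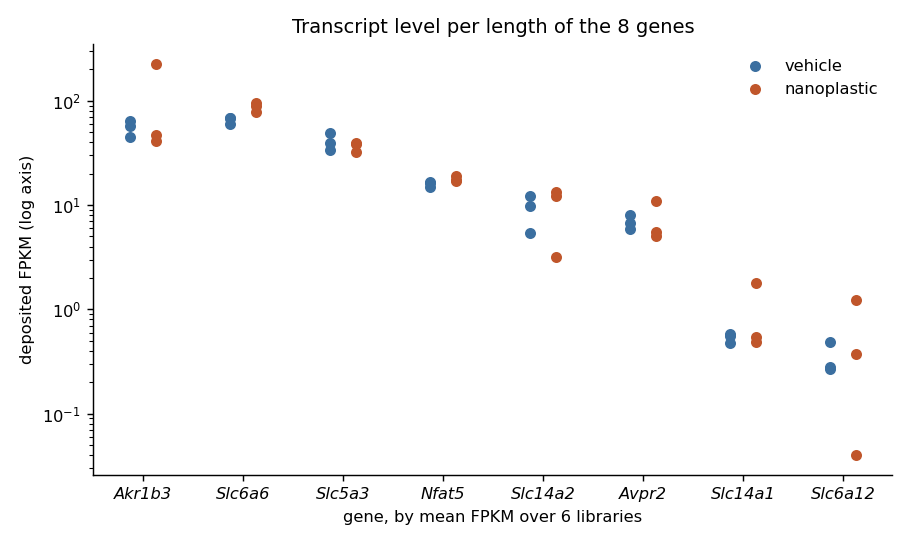
Deposited FPKM (log axis) of the 8 genes, ordered by their mean over 6 libraries, with 1 point per library, blue for vehicle and orange for nanoplastic. Akr1b3 ranges from 41.1 to 227.3 FPKM and Slc6a12 from 0.04 to 1.22 FPKM, each with its highest point in nanoplastic 1.

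The comparison of nanoplastic with vehicle asked whether the medullary transcripts differed after the particles. Of the 8 genes 0 passed edgeR's quasi-likelihood test at a Benjamini-Hochberg adjusted p under 0.05, against a background of 0% of the 18092 genes tested (0 genes). At an unadjusted p under 0.05, 1 of the 8, Slc6a6, was higher and 0 were lower, where the background was 3.81% of genes higher and 3.61% lower. At that level DESeq2 had 1 of the 8 and 915 genes in all, over a larger set of genes, and limma-voom had 1 of the 8 and 1301 of the 18092 genes. In CPM the groups did not overlap in 1 of the 8 genes, again Slc6a6. On that scale 6.54% of all genes had each nanoplastic library above each vehicle library and 6.32% had each below. On the deposited FPKM scale the groups of Nfat5 did not overlap either, and the share of all genes was not counted there. The median log2 fold change of the 8 genes was 0.27, with 7 positive and 1 negative, beside a median of 0.01 over all tested genes. Without nanoplastic 1 the median was -0.20, with 2 positive and 6 negative, and 0 of the 8 passed beside 0.0541% of the 18495 genes then tested. At an unadjusted p under 0.05 there was then 1 higher, Slc6a6 (background 3.76%), and there were 2 lower, Akr1b3 and Avpr2 (background 3.33%). In such whole-tissue libraries, fewer cells of a type and less RNA per cell cannot be told apart.

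**Figure D2:**
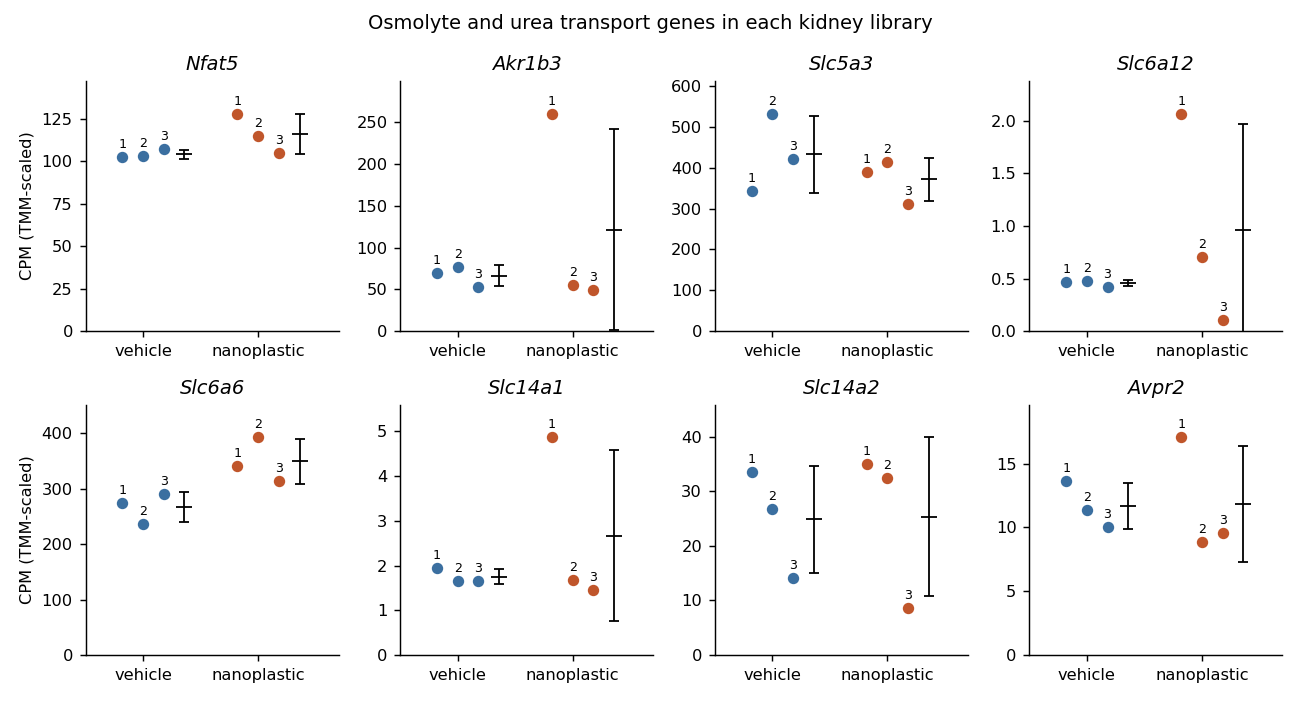
TMM-scaled CPM of each gene in each library (numbered points, mouse 1 to 3; blue vehicle, orange nanoplastic), with the group mean and SD in black beside them; each axis starts at 0, and the SD bar of Slc6a12 in nanoplastic is cut there. Nanoplastic 1 stands far above the other 5 libraries in Akr1b3, Slc6a12 and Slc14a1, and Slc6a6 is the gene whose groups do not overlap.

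Nfat5 itself varied little. It measured 102, 103 and 107 CPM in vehicle 1, 2 and 3 and 128, 115 and 105 CPM in nanoplastic 1, 2 and 3. In CPM nanoplastic 3 lay within the vehicle range and the other nanoplastic libraries above it. This depended on the scale. In deposited FPKM Nfat5 was at 16.5, 15.0 and 16.4 in vehicle and at 18.9, 17.1 and 17.3 in nanoplastic libraries. There each nanoplastic library lay above each vehicle library. The log2 fold change was 0.16 (SE 0.08, 95% interval -0.01 to 0.33, edgeR adjusted p = 0.696), so the interval reached at most 1.25-fold higher. The highest library was 1.25 times the lowest, the narrowest range of the 8 genes.

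Akr1b3 had 1782, 1781 and 1256 expected counts in vehicle and 6412, 1328 and 938 in nanoplastic libraries. In CPM this was 69.4, 77.1 and 53.3 in vehicle and 260.03, 55.4 and 48.7 in nanoplastic. Nanoplastic 1 stood 3.37 times above the next library, vehicle 2, and nanoplastic 3 was the lowest of all 6. The log2 fold change of 0.87 (SE 0.51, 95% interval -0.26 to 2.00, edgeR adjusted p = 0.727) rested on that 1 library. Without nanoplastic 1 it was -0.35 (SE 0.13, adjusted p = 0.594), and without vehicle 3 as well it was -0.49 (SE 0.09, adjusted p = 0.0950). Among the 5 other libraries the highest was 1.58 times the lowest.

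Slc6a12, the betaine transporter BGT1, was rare, with 12, 11 and 10 counts in vehicle and 51, 17 and 2 in nanoplastic libraries. Its CPM was 0.467, 0.476 and 0.424 in vehicle and 2.07, 0.709 and 0.104 in nanoplastic. The vehicle mice lay close together and the nanoplastic mice spread to either side of them. Its log2 fold change was 1.16 (SE 0.69, 95% interval -0.36 to 2.68, edgeR adjusted p = 0.732), and -0.05 without nanoplastic 1. With 2 to 51 counts per library the interval runs from 0.780-fold to 6.39-fold. It holds counting error and the spread between mice, which were not separated.

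Slc5a3, the sodium and myo-inositol cotransporter, was abundant and followed another order. It measured 344, 532 and 421 CPM in vehicle and 389, 414 and 312 CPM in nanoplastic libraries. Here vehicle 2 was the highest and nanoplastic 3 the lowest, and nanoplastic 1 lay in the middle. Its log2 fold change was -0.22 (SE 0.15, 95% interval -0.54 to 0.11, edgeR adjusted p = 0.759), and -0.04 without vehicle 2. The gene shares 159 of its 10913 annotated exon bases with Mrps6, a mitochondrial ribosomal protein gene on the same strand, which measured 19.7 to 27.6 CPM.

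Slc6a6, the taurine transporter TauT, measured 274, 237 and 290.3 CPM in vehicle and 341, 393 and 314 CPM in nanoplastic libraries. Each nanoplastic library lay above each vehicle library, and nanoplastic 2 was the highest. The group means were 267 ± 27.3 and 349 ± 40.0 CPM (SD, n = 3 each). The log2 fold change was 0.39 (SE 0.10, 95% interval 0.17 to 0.60), or 1.31-fold, with an unadjusted p of 0.00228 that came to 0.448 after adjustment over all genes in edgeR. DESeq2 called the gene at an adjusted p of 0.0223 with a log2 fold change of 0.38, and limma-voom did not, at an adjusted p of 0.501. Without nanoplastic 1 the log2 fold change was 0.41 (SE 0.10, edgeR adjusted p = 0.304), as large as with all 6 libraries. Taurine uptake is also a trait of proximal tubules and other cells, so this gene is less tied to the medulla than Slc6a12 or Slc14a2.

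Slc14a1 had 50, 38 and 39 counts in vehicle and 120, 40 and 28 in nanoplastic libraries, or 1.95, 1.65 and 1.65 CPM and 4.87, 1.67 and 1.45 CPM. Nanoplastic 1 was 2.50 times the next library, and the other 5 differed by at most 1.34 times. Its log2 fold change was 0.65 (SE 0.42, edgeR adjusted p = 0.756), and -0.16 without nanoplastic 1. Of red blood cells, which also carry UT-B, the 5 markers summed to 578 to 859 CPM in vehicle and to 625, 487 and 532 CPM in nanoplastic 1, 2 and 3, and 0 of the 5 had their highest value in nanoplastic 1. All 5 were lower at an unadjusted p under 0.05 (background 3.61%), and 0 passed after adjustment. The 5 endothelial markers summed to 362 CPM in nanoplastic 1 and to 318 to 335 CPM in the other libraries. The part of these cell types in the Slc14a1 values was not tested.

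Slc14a2 showed a second pattern. It measured 33.5, 26.8 and 14.2 CPM in vehicle and 34.9, 32.4 and 8.52 CPM in nanoplastic libraries, from 164 counts at the lowest to 861 at the highest. The low libraries were vehicle 3 and nanoplastic 3, 1 in each group, and the other 4 lay between 26.8 and 34.9 CPM. The highest library was 4.10 times the lowest, and still 3.93 times without nanoplastic 1. The groups overlapped, with a log2 fold change of 0.04 (SE 0.41, 95% interval -0.85 to 0.94, edgeR adjusted p = 0.990). That interval allows from 0.553-fold to 1.92-fold of the vehicle level. With vehicle 3 and nanoplastic 3 left out the log2 fold change was 0.16 (adjusted p = 0.658).

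Avpr2 measured 13.7, 11.4 and 10.1 CPM in vehicle and 17.1, 8.84 and 9.56 CPM in nanoplastic libraries. Nanoplastic 1 was the highest and nanoplastic 2 the lowest. The log2 fold change was 0.02 (SE 0.22, 95% interval -0.47 to 0.52, edgeR adjusted p = 0.990), and -0.35 without nanoplastic 1 (adjusted p = 0.667). The value is uncertain, since 2347 of the gene's 2886 annotated exon bases, or 81.3%, overlap Arhgap4 on the opposite strand, and no source used here says whether the libraries keep the strand. Arhgap4, which encodes a GTPase-activating protein, measured 8.13, 7.71 and 4.71 CPM in vehicle and 7.95, 7.05 and 6.60 CPM in nanoplastic libraries.

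**Figure D3:**
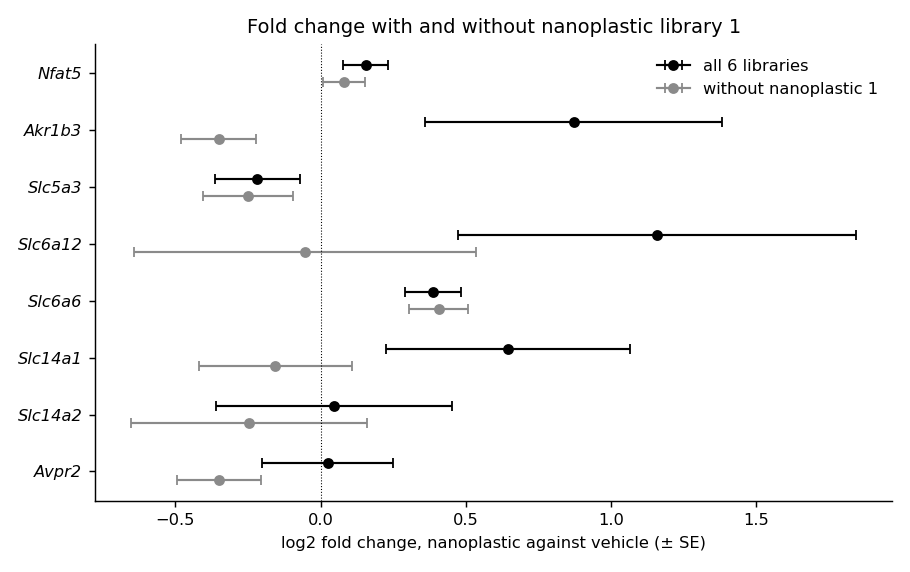
Log2 fold change of nanoplastic against vehicle with its SE for each gene, from edgeR on all 6 libraries (black) and without nanoplastic 1 (grey). Akr1b3 goes from 0.87 to -0.35 and Slc14a1 from 0.65 to -0.16, while Slc6a6 stays at 0.39 and 0.41.

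As a guide to how much medulla each library held, the 8 genes were set beside markers of nephron segments. The 4 thin limb markers all had their highest value in nanoplastic 1 and their lowest in vehicle 3 or nanoplastic 3. They summed to 35.5, 39.7 and 27.1 CPM in vehicle and to 107.3, 34.8 and 21.4 CPM in nanoplastic 1, 2 and 3. Cryab, a small heat shock protein abundant in the inner medulla, measured 82.4 CPM in nanoplastic 1 and 16.3 to 27.02 CPM in the others. Sptssb, a subunit of serine palmitoyltransferase, was at 9.12 CPM in nanoplastic 1, at 0 in vehicle 3 and at 0.156 CPM in nanoplastic 3.

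Principal cell markers of the collecting duct were divided. Aqp2, the water channel under vasopressin control, measured 58.7, 61.6 and 43.2 CPM in vehicle and 148.5, 61.0 and 46.1 CPM in nanoplastic libraries, an order close to that of Akr1b3. Fxyd4, a regulator of the sodium pump, was also highest in nanoplastic 1, at 27.8 CPM against 10.5 to 17.3 CPM elsewhere. Scnn1b and Scnn1g, subunits of the epithelial sodium channel, differed little between libraries, the farthest being Scnn1g in nanoplastic 2 at -0.17 from its mean in log2 CPM. Of the 7 principal cell markers, 4 had their highest value in nanoplastic 1.

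Markers of other segments and cell types ran the other way in places. The 3 distal convoluted tubule markers summed to 737 CPM in vehicle 3 and 775 CPM in nanoplastic 3, the libraries with the least Slc14a2, and to 532 to 588 CPM in the others. Slc12a3, the thiazide-sensitive cotransporter, measured 697 and 728 CPM in those libraries and 498 to 556 CPM elsewhere. In nanoplastic 1 the 5 intercalated cell markers summed to 163 CPM, with 201 to 246 CPM in the other libraries. The 5 proximal convoluted tubule markers summed to 4759 CPM there, with 5092 to 5608 CPM elsewhere. Both lists were divided. Slc26a4, Atp6v1g3 and Foxi1 were lowest in nanoplastic 1, while Slc4a1 was not. Slc4a9 was as low in vehicle 1 as in nanoplastic 1, at 62.7 CPM in both. Slc34a1 and Slc22a6 were lowest in nanoplastic 1, while Slc5a2, Slc34a3 and Slc5a12 were not. Slc5a12, at 394 CPM, lay above the vehicle libraries, at 358 to 372 CPM. Thick ascending limb markers, found in cortex and outer medulla, summed to 5007 to 6184 CPM in vehicle and 4354 to 5187 CPM in nanoplastic libraries. Umod, the most abundant of them, had a log2 fold change of -0.33 (SE 0.11, edgeR adjusted p = 0.588). Its groups did not overlap, with nanoplastic lower, as in 6.32% of all genes. The other markers of this list lay between -0.11 (Cldn10) and 0.02 (Slc12a1), and their groups overlapped. The 4 proximal straight tubule markers summed to 3228 CPM in nanoplastic 1 and to 3367 to 3862 CPM in the other libraries. Slc7a13 and Cyp7b1 were lowest in nanoplastic 1, while Slc5a1 and Atp11a were not. All 4 had negative log2 fold changes. In Cyp7b1 and Slc5a1 each nanoplastic library lay below each vehicle library, beside 6.32% of all genes. In the cell type lists 0 genes passed over all genes. The part of tissue sampling in any difference between the groups was not tested.

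**Figure D4:**
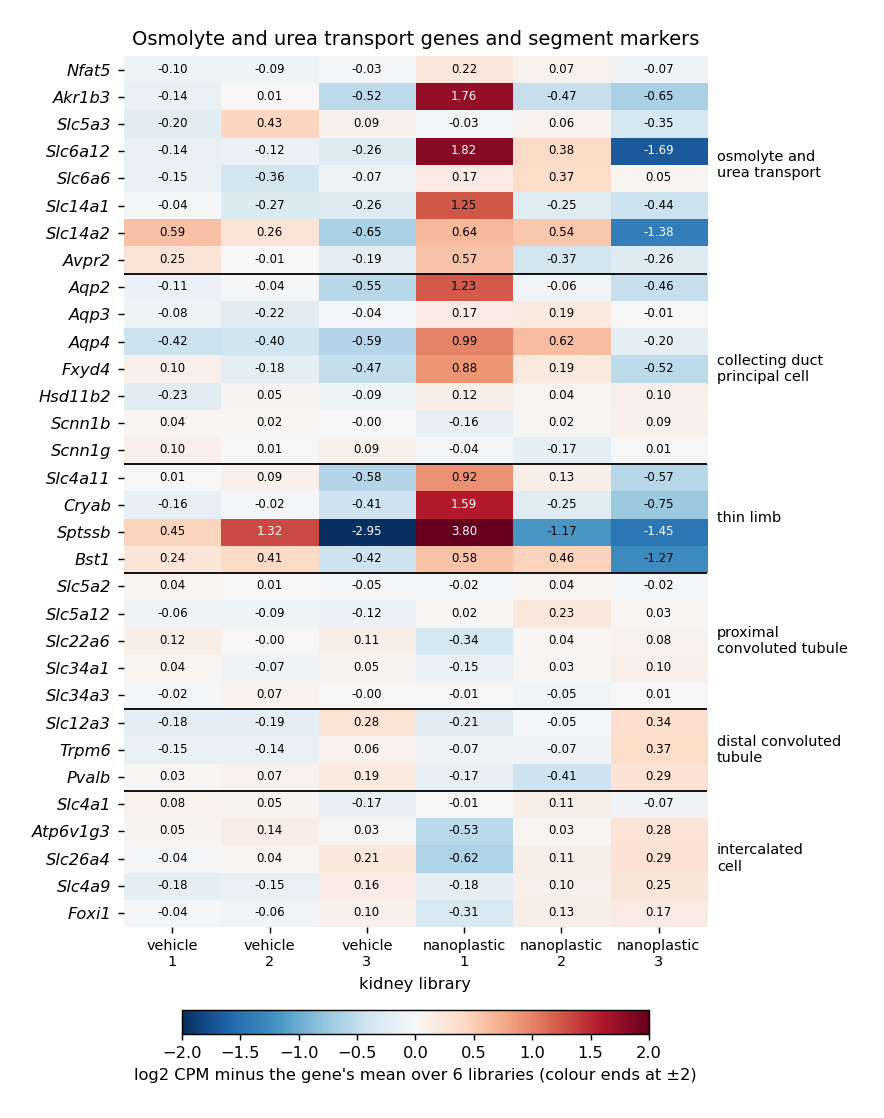
Log2 CPM (prior count 2) minus each gene's mean over the 6 libraries, 1 column per library and 1 row per gene, for the 8 genes and markers of 5 tubule segments or cell types; red is above and blue below the gene's mean, and colours end at 2 in either direction. Nanoplastic 1 reads 1.76 for Akr1b3, 1.59 for Cryab and 1.23 for Aqp2, and nanoplastic 3 and vehicle 3 read -1.38 and -0.65 for Slc14a2.

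The libraries thus took different places in Akr1b3 and in Slc14a2. Nanoplastic 1 was high in Akr1b3 (1.76 in log2 CPM above the gene's mean), Slc6a12 (1.82) and Slc14a1 (1.25), while in Slc14a2 (0.64) it lay beside vehicle 1 (0.59) and nanoplastic 2 (0.54). Vehicle 3 and nanoplastic 3 were low in Slc14a2 and in the thin limb markers, and nanoplastic 3 held the lowest value of 5 of the 8 genes, where 17.7% of all tested genes had their lowest value. The ratio of Akr1b3 to Slc14a2 CPM, which is not scaled to length and is compared here between libraries alone, was 7.45 in nanoplastic 1, 5.72 in nanoplastic 3 and 1.71 in nanoplastic 2, and 2.07, 2.88 and 3.76 in vehicle 1, 2 and 3. The SD among the nanoplastic mice was larger than the difference between the group means in Akr1b3, Slc6a12, Slc14a1, Slc14a2 and Avpr2.

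Of 17 other listed genes of osmolyte metabolism and the tonicity response, all were tested and 0 passed over all genes, with 4 positive and 13 negative and a median log2 fold change of -0.03. At an unadjusted p under 0.05 there were 0 higher and 2 lower, beside the 3.61% of all genes that were lower, and these were Gpcpd1 and Hspa1a. Without nanoplastic 1 there were 0 higher and 3 lower beside 3.33%, and these were 3 other genes, Slc38a2, Hspa4l and Hspa1b. All 3 had their highest value in vehicle 2, at 102, 80.2 and 269 CPM. The other libraries held 58.0 to 83.4, 58.9 to 76.2 and 31.6 to 77.4 CPM. Gpcpd1, which degrades the osmolyte glycerophosphocholine, measured 47.3, 43.0 and 35.4 CPM in vehicle and 29.4, 39.0 and 30.7 CPM in nanoplastic libraries (log2 fold change -0.34, SE 0.13, edgeR adjusted p = 0.5998). The groups overlapped through vehicle 3 and nanoplastic 2. Hspa1a, an inducible heat shock protein with a log2 fold change of -1.41 (SE 0.63), rested on vehicle 2, at 199 CPM there and 19.3 to 50.5 CPM in the other libraries. It has a near-identical copy, Hspa1b, so the division of reads is uncertain. Sord, which turns sorbitol into fructose, had a log2 fold change of 0.02 (SE 0.09), and Miox, which breaks down myo-inositol in the cortex, of 0.00 (SE 0.07).

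Genes of the vasopressin response and water transport had 8 positive and 4 negative members of 12 tested, a median log2 fold change of 0.05 and 0 called over all genes. There were 3 higher at an unadjusted p under 0.05 (background 3.81%) and 0 lower, and without nanoplastic 1 there were 3 higher (background 3.76%) and 1 lower. The 3 were Aqp4, Adcy6 and Aqp3, the last a basolateral water channel of principal cells. In each of them every nanoplastic library lay above every vehicle library, as in 6.54% of all genes. Aqp4, a basolateral water channel of the collecting duct and of the proximal straight tubule in mice, measured 31.0, 31.5 and 27.6 CPM in vehicle and 82.7, 63.8 and 36.2 CPM in nanoplastic libraries (log2 fold change 1.03, SE 0.22, edgeR adjusted p = 0.318). Its highest value was again in nanoplastic 1, and without that library the log2 fold change was 0.75 (adjusted p = 0.254). Without nanoplastic 3, its lowest nanoplastic library, it was called at 1.29 (edgeR adjusted p = 0.0123), and 1 of all genes passed there. Adcy6, an adenylyl cyclase that acts downstream of the V2 receptor, measured 81.2, 80.1 and 92.5 CPM in vehicle and 100.05, 101.0 and 101.5 CPM in nanoplastic libraries (log2 fold change 0.25, SE 0.07, edgeR adjusted p = 0.501). Unlike Aqp4 it was level across the nanoplastic mice.

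Urea and arginine handling genes had 3 positive and 2 negative members of 5 and 0 called over all genes, with 0 at an unadjusted p under 0.05 in either direction. Without nanoplastic 1 there were 2 higher at that level, Ass1 and Asl, beside 3.76% of all genes. Gatm and Asl had the lowest p, with log2 fold changes of -0.14 (SE 0.07) and 0.13 (SE 0.08) and edgeR adjusted p values of 0.717 and 0.727.

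The genes whose library profiles lay closest to each of the 8 were found by the root mean square difference of log2 CPM over the 6 libraries, after each gene was centred on its own mean, among up to 10461 genes of at least 5 CPM. For Akr1b3 the closest were Cryab (0.13 log2 units), Nupr1 (0.18) and Tspan6 (0.22), against a spread of Akr1b3 itself of 0.82. For Slc14a1 they were Plet1 (0.09), Car8 (0.13) and Tmem30b (0.15), against a spread of 0.57. Slc14a2 lay nearest to Bst1 (0.19), an ADP-ribosyl cyclase and one of the thin limb markers, then Xlr3b (0.23) and Cyp26b1 (0.34), against 0.76. Slc6a12 had no close partner, with Ppl (0.44), Cryab (0.48) and Tnc (0.48) against 1.03. It had 2 to 51 counts per library, and how much counting error adds to these distances was not tested. Slc6a6 lay nearest to Slc27a1 (0.05), a fatty acid transport protein, Mblac2 (0.06) and Il17rb (0.06), against 0.23. Nfat5 (Prpf38b, Krba1 and St14), Slc5a3 (Pmf1, Gt(ROSA)26Sor and Ap3s1) and Avpr2 (Anxa2 and Gsn) had spreads of 0.11, 0.24 and 0.32. These are descriptions over 6 libraries, in which nanoplastic 1 sets much of the range.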

How the data were processed

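Per the labels' protocols, RNA of 6 kidneys was read on a NovaSeq X Plus. The submitters' processing notes name GRCm39, RSEM 1.3.3, STAR 2.7.9a, Trim Galore 0.6.6 and FastQC, and give no order. Neither the annotation release nor the strand setting is given in the sources used here. For every gene of a library the authors deposited expected counts, TPM and FPKM, per the file headers, beside an effective length. The deposited expected counts are not normalized, and 10.4% to 11.1% of genes held a value that was not whole. Deposited FPKM served to compare genes, and deposited TPM served in alternatives as log2(TPM + 0.1) and log2(TPM + 1).

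GENCODE vM21 gave symbols for 51884 of 57180 gene IDs and, on its own build, the overlapping exons. After rounding and filterByExpr, 18092 genes were scaled by TMM, and the test was edgeR 4.0.16 (R 4.3.3; quasi-likelihood, no covariate), with p adjusted by Benjamini and Hochberg at 0.05. Alternatives used DESeq2 1.42.0, limma 3.58.1, other scaling, no filter, a replicate block and left-out libraries. SE is the log2 fold change over the root of F, and intervals are 95% intervals. The edgeR step was tested on simulated data with the same small spread for every gene. That test does not cover genes as variable as Akr1b3 or Slc6a12. Reads carry no molecular identifiers. P-values weigh the group difference against the variation among libraries within a group. That variation holds the spread between mice and counting error, which were not separated.

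The text names the 8 genes, the 2 of lowest p in each list it describes, and the 3 closest profiles. Further list and marker genes (such as Aqp2, Fxyd4, Scnn1b, Scnn1g, Slc12a3, Sord and Miox) were named after their values were seen, and some that the rule takes are given only in their list's sums. A thin limb marker and a gene with a close profile are not reported here, and the marker is left out of its list's sums. The 8 genes, lists and rule were chosen with earlier results of these data known.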

Additional observations from a re-analysis of the deposited data

How the results depend on the processing

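Nfat5 and Slc6a6 kept a positive and Slc5a3 a negative log2 fold change under all 16 alternatives, and 0 of the 3 was called except Slc6a6 with DESeq2 (0.38, adjusted p = 0.0223). The range for Slc6a6 was 0.29 to 0.52. With DESeq2, 1 of the 8 genes and 55 of all genes passed, and Slc6a12 and Slc14a1 were given no adjusted p there. Leaving out 1 library at a time gave 0 to 10 genes over all, and log2 fold changes of -0.35 to 1.24 for Akr1b3, -0.0545 to 1.60 for Slc6a12, -0.16 to 0.92 for Slc14a1, -0.25 to 0.44 for Slc14a2 and -0.35 to 0.20 for Avpr2. The values for Akr1b3, Slc6a12 and Slc14a1 turned negative without nanoplastic 1, Slc14a2 without vehicle 3, nanoplastic 1 or nanoplastic 2, and Avpr2 without vehicle 3 or nanoplastic 1. For Akr1b3, Slc6a12 and Slc14a1 the method mattered too. With all 6 libraries, edgeR gave 0.87, 1.16 and 0.65 and DESeq2 gave 0.86, 1.08 and 0.61. Limma-voom gave 0.44, 0.41 and 0.43, and limma on log2(TPM + 1) gave 0.50, 0.10 and 0.20. Without vehicle 3 and nanoplastic 1 together, 30 genes passed, 0 of the 8, and the values were -0.49 for Akr1b3, -0.10 for Slc6a12, -0.19 for Slc14a1, -0.52 for Slc14a2 and -0.45 for Avpr2. For Slc14a2 and Avpr2, whose value in 6 libraries is near 0, limma-voom gave -0.0740 and -0.0259, and for Slc14a2 limma on log2(TPM + 0.1) and log2(TPM + 1) gave -0.0738 and -0.0193. With the replicate number as a block, Slc14a2 was at -0.0701 and Avpr2 at -0.0175, and 0 genes passed, as without it. The deviations of same-numbered mice correlated over genes at 0.04, -0.02 and 0.10, and those of other pairs at -0.12 to 0.08. With 3 mice per group, such correlations cannot decide whether the numbers pair the mice. The order of the 8 genes by level was the same in TPM and in TMM-scaled CPM per kilobase. Leaving out vehicle 3 and nanoplastic 3 together, and counting the lists without nanoplastic 1, were chosen after seeing the data. The causes of these shifts were not tested beyond the libraries left out.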
